A study of Homo sapiens with 12 samples.

Results

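The subject is the transcriptional end of the Hippo pathway in BT474 cells, given by 10 genes of the 26485 listed in the table. They are the coactivator genes YAP1 and WWTR1 (which encodes TAZ), the DNA-binding partner genes TEAD1, TEAD2, TEAD3 and TEAD4, and the target genes LATS2, AMOTL2, AJUBA and ANKRD1. They were chosen by symbol, with earlier results of these data known, and all 10 passed the filter on low values. BT474 is a human cell line from a breast carcinoma with amplified HER2, labelled WT for genotype, and lapatinib inhibits the kinases of HER2 and EGFR. mRNA was sequenced from 4 groups of 3 libraries. Control cells date from day 0. The others had been exposed to 1 µM lapatinib, for 9 days in the drug-tolerant persisters (DTP), 6 months in the expanded persisters (DTEP) and 9 months in the long-term resistant cells (LR). The treatment field also gives 1 µM lapatinib for the Control libraries, which were read as untreated from their titles. The study describes parallel plates and technical replicates, so n counts libraries and the p-values measure only the spread between them. The groups come from 1 line in 1 course of treatment.

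In the Hippo pathway a cascade of kinases phosphorylates YAP and TAZ through the LATS kinases, which keeps both proteins out of the nucleus and marks them for degradation. When the cascade is off, YAP and TAZ enter the nucleus and bind TEAD proteins, which carry no strong activation domain of their own and recognise the bases GGAATG. LATS2, AMOTL2, AJUBA and ANKRD1 are among the genes that this complex turns on, and the products of the first 3 of them feed back on the pathway. In breast epithelium YAP and TAZ are known for their response to cell shape, density and attachment. mRNA levels alone do not report the phosphorylation or location of YAP and TAZ.

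The 250 bases before the start of transcription are shown for the members that hold GGAATG there, because this is the sequence that TEAD proteins read. Capitals mark GGAATG or, for the other strand, CATTCC, and each sequence is written in the direction of its gene from RefSeq (GRCh38.p14). ANKRD1 (chr10:90921088-90921337, minus strand) holds 2 copies, which begin 220 and 128 bases before the start. AMOTL2 (chr3:134374448-134374697, minus strand) holds 1 at 69 bases, AJUBA (chr14:22976843-22977092, minus strand) 1 at 59 bases and YAP1 (chr11:102110197-102110446, plus strand) 1 at 162 bases. For AMOTL2 and AJUBA the window shown lies inside the gene, before an internal start. The window before the outermost annotated start of each holds no match.
ANKRD1: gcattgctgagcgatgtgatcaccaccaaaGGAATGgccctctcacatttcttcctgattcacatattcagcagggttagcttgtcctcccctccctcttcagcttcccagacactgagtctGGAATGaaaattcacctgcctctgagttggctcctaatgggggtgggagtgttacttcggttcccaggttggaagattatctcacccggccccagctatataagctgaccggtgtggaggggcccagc
AMOTL2: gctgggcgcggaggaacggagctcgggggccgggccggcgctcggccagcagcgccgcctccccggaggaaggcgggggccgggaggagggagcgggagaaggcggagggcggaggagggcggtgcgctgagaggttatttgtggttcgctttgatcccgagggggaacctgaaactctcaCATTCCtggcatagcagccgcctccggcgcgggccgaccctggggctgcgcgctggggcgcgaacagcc
AJUBA: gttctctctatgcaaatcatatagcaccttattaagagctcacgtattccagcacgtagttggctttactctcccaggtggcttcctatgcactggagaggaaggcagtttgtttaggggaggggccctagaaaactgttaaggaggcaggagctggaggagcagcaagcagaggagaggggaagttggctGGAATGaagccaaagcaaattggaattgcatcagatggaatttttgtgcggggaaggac
YAP1: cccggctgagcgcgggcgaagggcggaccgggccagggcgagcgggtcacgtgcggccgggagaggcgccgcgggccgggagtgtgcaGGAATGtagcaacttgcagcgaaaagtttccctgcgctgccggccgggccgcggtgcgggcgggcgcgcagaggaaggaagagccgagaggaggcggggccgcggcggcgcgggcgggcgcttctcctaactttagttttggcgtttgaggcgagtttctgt
Of 12 such windows for 8 of the members, 4 (33.3%) held the motif on either strand, against 4175 of 35116 windows (11.9%) over all genes. The windows of WWTR1, TEAD2, TEAD3 and LATS2 held none, and TEAD1 and TEAD4 had no entry. A match describes the letters only, and these data hold no measurement of binding.

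Levels are given as normalised read counts, which are reads scaled to a common library size (CPM with the TMM factors of the authors). Depth was 16383363 to 25030482 assigned reads per library, so that 1 read was worth 0.0412 to 0.0576 and a library without a read allowed a level of up to 0.124 to 0.173 (3 reads, counting error only). A gene passed the test at an adjusted p below 0.05 (limma on log2(value + 1), 13794 genes tested), and log2 changes are on that scale, which understates the change of low genes. DTEP replicate 3 stood apart from its group. Its Pearson's r, computed across genes, was 0.971 to 0.986 with LR libraries and 0.934 to 0.962 with the other DTEP libraries. The 7 luminal epithelial markers checked, among them KRT8, GATA3 and ERBB2, were above 1 in every group. Their sum moved with the groups, from 10520.3 to 11263 in Control and 12878 to 15300.0 in DTP to 4240 to 6171 in DTEP and 3991 to 5450.4 in LR. Single markers moved in opposite directions. From Control to LR the mean of CDH1 went from 1125 to 75.1 and that of ERBB2 from 6526 to 1774, while GATA3 went from 190.3 to 1251. The late changes of the members accompany these shifts, whose part in them was not tested. Of 13 markers of stroma, endothelium and leukocytes, 10 or 11 stayed below 1 in every library of a group. Their sum ran from 52.9 to 132 and was mostly COL1A1. In bulk RNA, fewer cells with a transcript and less of it per cell cannot be told apart.

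Members moved in both directions in each transition. From Control to DTP 2 of the 10 rose and 4 fell, where 25.2% of all genes rose and 28.8% fell (54.0% passed). From DTP to DTEP 3 rose and 4 fell, where 35.7% of all genes rose and 32.6% fell (68.2% passed). ANKRD1, which entered the test through DTP, where it is highest, is 1 of those 2 that rose and then 1 of those 4 that fell. With genes of a mean of at least 5, 1 rose and 4 fell from Control to DTP, and 3 rose and 3 fell from DTP to DTEP. From DTEP to LR 1 rose and 1 fell, where 3.04% of all genes rose and 4.31% fell (7.35% passed). Against Control, 4 rose and 3 fell in DTEP (29.5% and 28.7% of all genes, 58.2% passed), and 4 rose and 3 fell in LR (30.2% and 32.6%, 62.8% passed). Groups that did not overlap were found for 7 of the 10 from Control to DTP (77.3% of all genes), 7 from DTP to DTEP (67.3%), 4 from DTEP to LR (22.5%) and 7 in both comparisons of late groups with Control (65.6% in DTEP and 77.0% in LR). The comparisons share libraries. The count in LR against DTEP rested on single libraries. It was 5 without DTEP replicate 3, 2 without DTP replicate 3, 1 without DTP replicate 1, DTEP replicate 2 or LR replicate 3, and 0 without any of the other 7. The count in DTP against Control was 6 in all, and it fell to 4 without Control replicate 1, DTP replicate 1 or LR replicate 1, to 3 without Control replicate 2, DTP replicate 2 or DTP replicate 3, and to 2 without Control replicate 3. The count in DTEP against Control was 7, and 4 without Control replicate 1, Control replicate 2 or DTEP replicate 2. Under the threshold of the study, which adds an absolute log2 change above 2, TEAD1 was the only member that passed. It passed in DTEP against DTP (15.2% of all genes), in DTEP against Control (10.6%) and in LR against Control (12.8%). No member passed it in DTP against Control (4.92% of all genes) or in LR against DTEP (0.681%), where 6 and 5 members had an unadjusted p below 0.05 (limma).

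**Figure D1:**
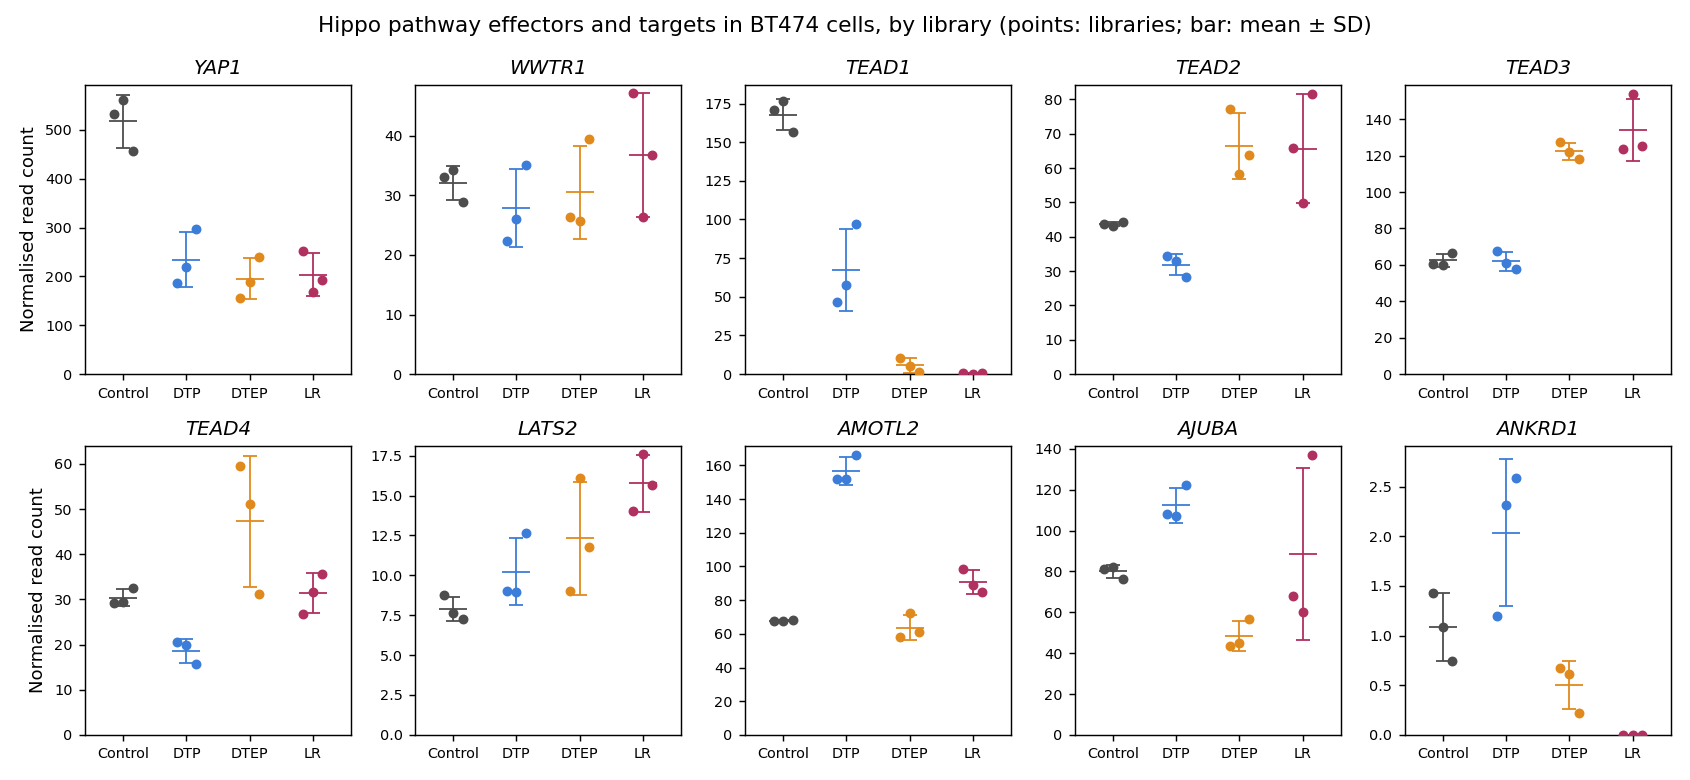
Normalised read count of the 10 members in each library, by group (points are libraries, the horizontal bar is the mean and the error bar the SD, n = 3, and each panel has its own axis from 0). TEAD1 went from 156 to 176 in Control to below 0.5 in LR, while TEAD3 was above 115 in every DTEP and LR library and below 70 in every other.

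YAP1 (Entrez 10413, chromosome 11, 102110447 to 102233424) was the coactivator that changed. It was at 533, 561 and 457 normalised read counts in the Control libraries. Those of DTP held 186, 220 and 297, those of DTEP 156, 189 and 239 and those of LR 252, 168 and 192. Every Control library lay above every treated library, and the 3 treated groups overlapped with each other. The mean fell from 517 ± 53.7 (SD, n = 3) to 234 ± 56.9 in DTP, a log2 change of -1.16 (SE 0.21 in limma, adjusted p 0.000751). Against Control the log2 change was -1.42 in DTEP and -1.35 in LR (SE 0.21 in both in limma, adjusted p 0.000114 and 0.000146). The changes of -0.26 from DTP to DTEP and 0.07 from DTEP to LR did not pass (limma adjusted p 0.297 and 0.838). The second turned to -0.08 without DTEP replicate 1 and -0.10 without LR replicate 1.

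Base composition and transcript length moved with the DTP change across the transcriptome. Over 11852 tested genes with a MANE Select transcript, Spearman's rho between the log2 change in DTP and the GC content of the transcript was 0.43, and with transcript length it was -0.43. The YAP1 transcript has 5401 bases and 43.5% GC, and that of TEAD1 has 9417 bases and 43.0% GC, against medians of 3426 bases and 48.5% GC over those genes. By library, the rho with GC was 0.527 in DTP replicate 1, 0.438 in replicate 2 and 0.282 in replicate 3. Within DTP, YAP1, WWTR1, TEAD1, LATS2, AMOTL2, AJUBA and ANKRD1 were highest in replicate 3. TEAD2, TEAD3 and TEAD4 were lowest in that library. In DTEP and LR against Control the rho with GC was 0.106 and 0.0360, and that with length -0.209 and 0.00569, while in LR against DTEP the rho with length was 0.41. In the late groups the YAP1 means of 195 and 204 normalised read counts were no higher than the 234 of DTP. The other members are given here by their call in DTP against Control. AMOTL2 (56.3% GC, 4868 bases) and ANKRD1 (42.1% GC, 1790 bases) were higher there. TEAD2 (58.1% GC, 2175 bases) and TEAD4 (60.4% GC, 1710 bases) were lower. No called change was found for WWTR1 (42.2% GC, 5037 bases), LATS2 (51.8% GC, 5546 bases), AJUBA (52.6% GC, 4168 bases) or TEAD3 (59.8% GC, 2986 bases). The part of composition and length in the results was not tested.

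WWTR1 (Entrez 25937, chromosome 3, 149517235 to 149724788), which encodes the paralogous coactivator TAZ, kept overlapping groups throughout. It was at 28.8 to 34.2 normalised read counts in the Control libraries. Those of DTP held 22.4 to 35.1, those of DTEP 25.7 to 39.5 and those of LR 26.3 to 47.2. Its log2 changes were -0.22, 0.13 and 0.25 in the successive transitions (SE 0.24 in each in limma, adjusted p 0.471, 0.660 and 0.467). Against Control they were -0.09 in DTEP and 0.16 in LR (limma adjusted p 0.762 and 0.586), and signs this near 0 turned with single libraries left out (0.01 without DTEP replicate 2 and -0.04 without LR replicate 1). The same held from DTP to DTEP, where the value was -0.01 when DTP replicate 1 was left out and -0.07 when DTEP replicate 3 was. The antisense gene WWTR1-AS1 shares 756 exonic bases with it and had group means of 0.101 to 0.485 normalised read counts.

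Per kilobase of transcript, YAP1 was the more abundant coactivator transcript in every library, and its excess over WWTR1 narrowed. The ratio of YAP1 to WWTR1 per kilobase was 15.05 ± 0.244 (SD, n = 3) for Control, 7.84 ± 0.0913 for DTP, 6.01 ± 0.748 for DTEP and 5.26 ± 0.589 for LR. Every Control ratio (14.8 to 15.3) lay above every DTP ratio (7.74 to 7.91), and these lay above every DTEP and LR ratio (4.88 to 6.87). The ratio was spread less over the DTP libraries than either gene alone. The ratio is given as a description, with no test.

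TEAD1 (Entrez 7003, chromosome 11, 12674421 to 12944737) had the largest log2 changes of the 10 members. It was at 171, 176 and 156 normalised read counts in the Control libraries. Those of DTP held 46.8, 57.9 and 97.2, those of DTEP 10.7, 5.40 and 1.07 and those of LR 0.465, 0.332 and 0.436. No group overlapped with another, and the LR values stood for 11, 6 and 9 reads against 3246 to 3710 reads in Control. The mean fell from 168 ± 10.3 (SD, n = 3) in Control to 67.3 ± 26.5 in DTP, 5.71 ± 4.81 in DTEP and 0.411 ± 0.0698 in LR, which is 408-fold below Control. The log2 change was -3.60 in DTEP against DTP (SE 0.48 in limma, adjusted p 3.25e-05) and -6.90 in LR against Control (SE 0.48 in limma, adjusted p 1.62e-07). In every alternative run, single libraries left out among them, both passed.

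The outer steps of the TEAD1 decline depended on the libraries and the model used. In DTP against Control the log2 change was -1.37 (SE 0.48 in limma, adjusted p 0.0294). The call was lost in 6 of 22 alternatives, among them those without DTP replicate 1 (-1.15, limma adjusted p 0.114) or DTP replicate 2 (0.0832) and without any Control library (0.0589 to 0.0755). In LR against DTEP it was -1.93 (SE 0.48 in limma, adjusted p 0.0375), and -2.62 without DTEP replicate 3 (limma adjusted p 8.87e-05). It lost the call without DTP replicate 1 or 2, DTEP replicate 1 or 2, or any Control or LR library (0.0539 to 0.136), with -1.37 without DTEP replicate 1. Fitted to the 6 libraries compared alone, its limma adjusted p was 0.301, with no filter 0.0627 and with the replicate block 0.0537. The count models on the recovered reads put the same step at -3.69 (edgeR, adjusted p 0.00895) and -3.74 (DESeq2, adjusted p 1.1e-07), and limma at -3.01 with a pseudocount of 0.1 (adjusted p 0.0147) and -2.37 with 0.5 (0.0272). In DTEP replicate 3 TEAD1 had 19 reads, against 223 and 131 in replicates 1 and 2, so this library lay nearest to the LR values.

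The other 3 TEAD genes rose from DTP to DTEP. TEAD3 (Entrez 7005, chromosome 6, 35473597 to 35497079) was at 60.6, 60.2 and 66.5 normalised read counts in Control and at 67.5, 60.8 and 57.6 in DTP. It then stood at 127, 122 and 118 in DTEP and 124, 154 and 125 in LR, so that both late groups lay above both early ones. Its mean rose from 61.9 ± 5.05 (SD, n = 3) to 122 ± 4.61, a log2 change of 0.97 (SE 0.12 in limma, adjusted p 2.03e-05). Against Control the change in LR was 1.09 (SE 0.12 in limma, adjusted p 9.5e-06). In DTP against Control it was -0.01 (limma adjusted p 0.943), a sign that turned to 0.03 under median-of-ratios scaling, 0.06 under edgeR, 0.05 under DESeq2, 0.03 without Control replicate 3 and 0.04 without DTP replicate 3.

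TEAD2 (Entrez 8463, chromosome 19, 49340595 to 49362416) was at 43.6, 43.3 and 44.3 normalised read counts in the Control libraries. Those of DTP held 34.3, 32.9 and 28.4, those of DTEP 77.2, 58.3 and 63.9 and those of LR 65.9, 49.7 and 81.4. DTP lay below Control and both late groups lay above it. The rise from DTP to DTEP was 1.03 on the log2 scale (SE 0.18 in limma, adjusted p 0.000237), and against Control the changes were 0.58 in DTEP and 0.55 in LR (limma adjusted p 0.0134 and 0.0171, the second 0.0774 without LR replicate 3). The DTP decrease of -0.45 lay at the threshold (SE 0.18 in limma, adjusted p 0.0476). In 14 of 22 alternatives it was not called. Among them were edgeR (0.0848), DESeq2 (0.0755) and median-of-ratios scaling with limma (0.0663), and the fits without DTP replicate 3 (0.135), any other DTP library, any Control library, DTEP replicate 2 or LR replicate 1 (0.0508 to 0.109). TEAD2 shares 319 exonic bases with CD37 on the opposite strand, which was listed at 0 in every library.

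TEAD4 (Entrez 7004, chromosome 12, 2959397 to 3040676) was at 29.2, 29.4 and 32.6 normalised read counts in Control and fell to 20.5, 19.8 and 15.6 in DTP. It was at 59.4, 51.1 and 31.3 in DTEP and 26.8, 31.5 and 35.7 in LR, and DTEP replicate 3 lay within the LR range. Its decrease in DTP was -0.68 on the log2 scale (SE 0.22 in limma, adjusted p 0.0200), and it lost the call without Control replicate 3 (0.0668) or DTP replicate 3 (0.0714). From DTP to DTEP it was 1.26 (SE 0.22 in limma, adjusted p 0.000279). The change of -0.54 from DTEP to LR did not pass (limma adjusted p 0.110), and did so without DTEP replicate 3 (-0.80, limma adjusted p 0.00239). In LR against Control it was 0.04 (limma adjusted p 0.891), and -0.06 without LR replicate 3. The change of 0.57 in DTEP against Control (limma adjusted p 0.0398) lost its call in 10 of 22 alternatives. Among them were those without DTP replicate 2, DTEP replicate 1 or 2, or any Control library (0.0535 to 0.145), and median-of-ratios scaling (0.0570).

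**Figure D2:**
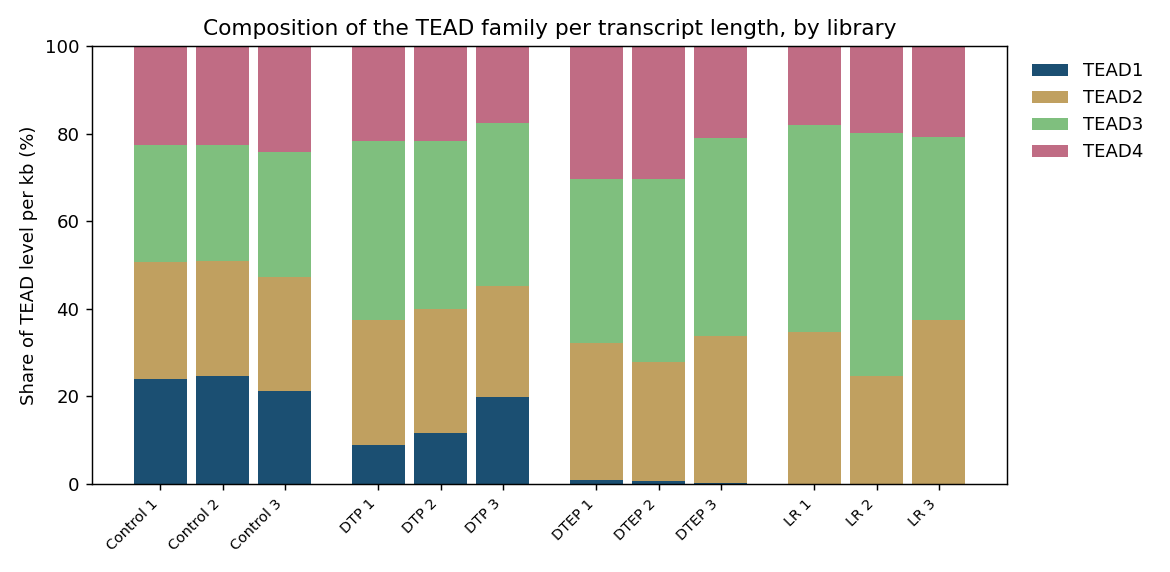
Share of each TEAD gene in the summed TEAD level per kilobase of transcript, in percent, stacked for each of the 12 libraries. TEAD1 held 21.2% to 24.7% in Control and under 1% in every DTEP and LR library, and TEAD3 held the largest share in every DTP, DTEP and LR library.

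Per kilobase of transcript, the make-up of the TEAD family shifted while its sum did not fall in the late groups. In Control the shares were nearly even, at 23.3% ± 1.83 (SD, n = 3) for TEAD1, 26.3% ± 0.273 for TEAD2, 27.3% ± 1.02 for TEAD3 and 23.2% ± 0.995 for TEAD4. The share of TEAD1 was 13.5% ± 5.73 in DTP, 0.569% ± 0.432 in DTEP and 0.0469% ± 0.00926 in LR. In DTP replicates 1, 2 and 3 it was 8.98%, 11.5% and 19.9%. The part of base composition and transcript length in the DTP shares and in the summed level was not tested. TEAD3 held 48.2% ± 6.88 in LR, TEAD2 32.2% ± 6.72 and TEAD4 19.5% ± 1.45. The summed level per kilobase started at 76.6 ± 1.50 in Control, dropped to 53.4 ± 1.78 with DTP and then stood at 99.8 ± 13.4 (DTEP) and 93.5 ± 6.46 (LR). Every DTP library (51.8 to 55.3) lay below every Control library (75.5 to 78.3), and every DTEP and LR library (87.3 to 114) lay above. With all annotated exons merged as the length, TEAD3 held 31.9% in Control and 55.2% in LR, and TEAD1 24.5% and 0.0483%.

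**Figure D3:**
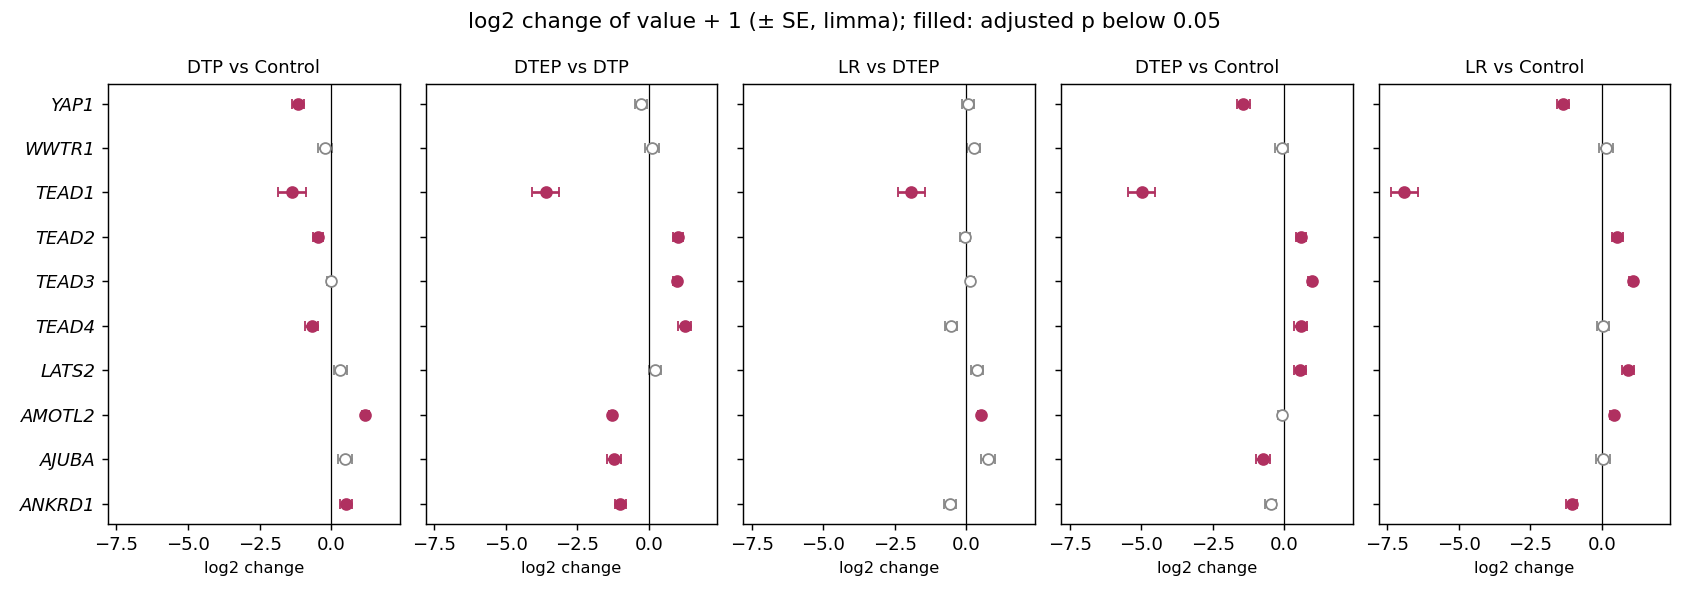
Change of each member on the log2(value + 1) scale in 5 comparisons, with the SE of the limma fit as error bars (filled points passed an adjusted p of 0.05, open points did not). TEAD1 lies to the left in all 5 panels, and TEAD2, TEAD3 and TEAD4 lie to the right of 0 in DTEP vs DTP, at 1.03, 0.97 and 1.26.

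The target genes did not move as a block. AMOTL2 (Entrez 51421, chromosome 3, 134355345 to 134375417), an angiomotin family adaptor that binds YAP at junctions, was at 67.6, 67.5 and 68.0 normalised read counts in Control and at 152, 152 and 166 in DTP. It returned to 58.1, 72.2 and 61.0 in DTEP and was at 98.7, 89.2 and 84.9 in LR. Every DTP library lay above every other library, and LR lay above Control and DTEP. The mean rose from 67.7 ± 0.264 to 157 ± 8.40 (SD, n = 3), a log2 change of 1.20 (SE 0.12 in limma, adjusted p 1.09e-05), and then changed by -1.29 (SE 0.12 in limma, adjusted p 1.56e-06). Both passed in every alternative run. The rise of 0.51 from DTEP to LR (limma adjusted p 0.0307) lost its call in 9 of 22 alternatives. Among them were those without DTP replicate 2, DTEP replicate 1, LR replicate 1 or 2, or any Control library (0.0585 to 0.0939).

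AJUBA (Entrez 84962, chromosome 14, 22971177 to 22982551), a LIM protein of junctions that restrains the LATS kinases, was at 81.4, 82.2 and 76.3 normalised read counts in the Control libraries. Those of DTP held 108, 107 and 122, those of DTEP 43.4, 45.1 and 56.6 and those of LR 68.1, 60.2 and 137. DTP lay above Control and DTEP below it, and 1 LR library lay above all others. The DTP difference of 0.48 did not pass (SE 0.24 in limma, adjusted p 0.115). It did in 2 of 22 alternatives, 1 of them without LR replicate 3 (0.0104), a library outside that comparison. The decrease of -1.21 from DTP to DTEP passed (SE 0.24 in limma, adjusted p 0.000858). So did that of -0.72 in DTEP against Control (limma adjusted p 0.0234), which was lost without Control replicate 1 or 2 or DTEP replicate 1 or 2 (0.0607 to 0.0666). From DTEP to LR the change was 0.77 (limma adjusted p 0.0661), 0.88 without DTEP replicate 3 (0.0176) and 0.41 without LR replicate 3, and it passed under edgeR (0.0417) and DESeq2 (0.0105). In LR against Control it was 0.05 (limma adjusted p 0.881), and -0.32 without LR replicate 3.

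LATS2 (Entrez 26524, chromosome 13, 20973036 to 21061586), a kinase that phosphorylates YAP and TAZ, was low in all groups. It was at 8.74, 7.66 and 7.27 normalised read counts in the Control libraries. Those of DTP held 9.03, 8.98 and 12.7, those of DTEP 9.04, 16.1 and 11.8 and those of LR 14.0, 17.6 and 15.6. Every treated library lay above every Control library, and LR overlapped with DTEP. It rose by 0.91 on the log2 scale in LR against Control (SE 0.22 in limma, adjusted p 0.00293), which passed in every alternative run. The rise of 0.55 in DTEP (limma adjusted p 0.0451) lost its call in 13 of 22 alternatives. Among them were those without DTP replicate 1 or 2, DTEP replicate 2 or 3, LR replicate 1 or 3, or any Control library (0.0529 to 0.183), and it was 0.35 without DTEP replicate 2. The 3 successive changes of 0.32, 0.23 and 0.36 did not pass (limma adjusted p 0.227, 0.369 and 0.244).

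ANKRD1 (Entrez 27063, chromosome 10, 90912096 to 90921087), a muscle ankyrin repeat protein widely used as a YAP reporter gene, was near the limit of detection. It had 31, 20 and 16 reads in the Control libraries, 23, 47 and 45 in DTP, 14, 15 and 4 in DTEP and 0 in each LR library. On the scale of normalised read counts these were 0.745 to 1.43 in Control, 1.20 to 2.59 in DTP and 0.225 to 0.670 in DTEP. Against the limit of 0.166 that 3 reads set in an LR library, LR was at least 12.3-fold lower than DTP and at least 6.54-fold lower than Control. ANKRD1 reached 1 in all 3 DTP libraries and in 2 of Control, and so entered the test through DTP, where it is highest. The decreases passed from DTP to DTEP (log2 change -1.0, SE 0.20 in limma, adjusted p 0.000706) and in LR against Control (limma adjusted p 0.000575). The difference of 0.52 in DTP against Control passed (limma adjusted p 0.0401), with groups that overlapped. Its call was lost in 11 of 21 alternatives. Among them were edgeR (0.083), DESeq2 (0.139) and a pseudocount of 0.1 (0.111), and the fits without Control replicate 2 or 3, DTP replicate 2 or 3, or LR replicate 1 (0.0532 to 0.159). From DTEP to LR it did not pass (limma adjusted p 0.0766). It did without DTEP replicate 3 (0.0133), with a pseudocount of 0.1 or 0.5 (0.00612 and 0.0466), under edgeR (0.00938) and under DESeq2 (0.000317). In DTEP against Control it did not (0.0562) and did without Control replicate 3, DTP replicate 1 or DTEP replicate 1 (0.0264 to 0.0469), with a pseudocount of 0.1 or 0.5 (0.0473 and 0.0457) and under median-of-ratios scaling (0.0443).

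A further 51 pathway genes, from the kinases above LATS to the cofactors of TEAD, were listed, and 46 of them were tested. In DTP against Control 8 rose and 22 fell, where 25.2% of all genes rose and 28.8% fell (median log2 change -0.55, against -0.01 over all genes tested). With genes of a mean of at least 5, 6 rose and 20 fell. In DTEP against DTP 19 rose and 17 fell (median 0.29, against 0.08). That is 36 of the 46, where 35.7% of all genes rose and 32.6% fell (68.2% passed). In LR against DTEP 1 rose and 2 fell, where 3.04% and 4.31% of all genes did. These 3 became 25 without DTEP replicate 3, 1 without DTEP replicate 1 or LR replicate 2, and 0 without DTEP replicate 2. By role, and beside the 28.8% of all genes that fell in DTP, the genes that fell were 2 of 3 core kinases, 2 of 3 core adaptors, 5 of 9 upstream kinases, 2 of 5 upstream scaffolds, 2 of 4 RASSF adaptors and 5 of 7 tested subunits of STRIPAK, a phosphatase complex that opposes the MST kinases. So did 1 of 2 NDR kinases, 1 of 2 LIM adaptors, 1 of 3 tested protocadherins and 1 of 2 ubiquitin ligase subunits. Beside the 25.2% of all genes that rose, 2 of 9 upstream kinases and 1 of 5 upstream scaffolds did. The other NDR kinase, the other LIM adaptor and the 1 tested kinase of the YAP degron rose too. None of the 2 junctional adaptors passed in DTP, and both tested TEAD cofactors, VGLL1 and VGLL4, rose. VGLL1 entered the test through DTP, where it is highest, so its direction there was fixed by the filter. It is counted among the 8 that rose and, from DTP to DTEP, among the 17 that fell. These numbers of genes are small, and the roles were not tested against each other. Base composition and transcript length moved with the DTP change across all genes, and their part in these counts was not tested. LATS1, the paralogue of LATS2, fell in DTP, with 61.6 ± 6.13 normalised read counts before and 15.2 ± 6.24 after (SD, n = 3, log2 change -2.01, limma adjusted p 0.000826) and rose to 48.0 ± 26.0 in DTEP (1.50, limma adjusted p 0.00341). Its DTEP libraries ran from 22.2 to 74.2, and DTEP replicate 1 lay below DTP replicate 3. MOB4 and CSNK1E, of 5 listed genes that were not tested, had at most 2 reads in any library.

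NF2, which encodes the scaffold Merlin, did not differ between Control and DTP (38.7 ± 2.12 and 37.5 ± 1.23 normalised read counts, limma adjusted p 0.758) beyond the spread of its libraries. It rose to 115 ± 5.73 in DTEP (log2 change 1.59, SE 0.11 in limma, adjusted p 1.45e-07) and was at 111 ± 4.72 in LR. FRMD6, a scaffold related to Merlin, and TNIK, a kinase related to the MAP4K group, had the other largest rises from DTP to DTEP (1.93 and 1.90, limma adjusted p 0.000692 and 9.49e-05). Both genes, and MAP4K4, RASSF2 and AMOTL1 below, were named for the size of this change, so its direction was fixed by the choice. FRMD6 was at 34.5 to 37.6 in Control, 8.04 to 13.6 in DTP and 23.2, 43.1 and 82.7 in DTEP. TNIK was at 13.9 to 15.1, 7.20 to 14.6 and 31.6 to 47.1 in the same order. MAP4K4, a kinase that acts on LATS, was at 197 ± 3.10 in Control and 116 ± 15.7 in DTP, and it fell to 9.64 ± 5.84 in DTEP and 1.88 ± 0.720 in LR. Its log2 change was -3.62 in DTEP against DTP (SE 0.36 in limma, adjusted p 3.03e-06). RASSF2, an adaptor of the MST kinases, changed by -2.73 and had 0 reads in LR, at least 90.1-fold lower than in Control. Of the angiomotins, AMOT changed by -2.20 and AMOTL1 by -2.58 from DTP to DTEP (limma adjusted p 4e-05 and 0.000178), beside -1.29 for AMOTL2.

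VGLL1 and VGLL4 encode cofactors that compete with YAP for TEAD. VGLL1 was at 0.924 to 0.978 normalised read counts in Control, 5.53 to 7.70 in DTP, 1.87, 0.330 and 0 in DTEP and 0 in each LR library. VGLL1 was tested because its DTP libraries reached 1, as no Control or LR library did, so its calls are on a gene that entered through the group where it is high. Its log2 difference was 2.0 in DTP and then changed by -2.32 in DTEP (SE 0.29 in both in limma, adjusted p 0.000168 and 2.1e-05). VGLL4, a repressor of TEAD, went from 82.6 ± 3.12 to 128 ± 3.52 and back to 80.9 ± 5.63 (SD, n = 3, log2 changes 0.63 and -0.66, limma adjusted p 0.00104 and 0.000411). The levels of both cofactors were highest in DTP, as that of AMOTL2 was.

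A widely used signature of YAP and TAZ activity holds 19 genes besides LATS2, AMOTL2 and ANKRD1. Of these, 15 were tested, and AXL, FOXF2, CCDC80 and RBMS3 were too low. In DTP against Control 5 rose and 2 fell, where 25.2% of all genes rose and 28.8% fell (median log2 change 0.43, against -0.01 over all genes). In DTEP against DTP 5 rose and 7 fell, where 35.7% and 32.6% of all genes did (-0.24, against 0.08). In LR against Control 7 rose and 4 fell, where 30.2% and 32.6% did (0.85, against -0.03). NT5E and TGFB2 are counted among the 15 although they reached 1 in no Control library, and were named after their values were seen. NT5E reached 1 in its DTP libraries only. It thus entered the test through the group where it is highest, and its directions into and out of DTP were fixed by the filter. The DTP count of 7 was 4 without Control replicate 1 or DTP replicate 2 and 3 without DTP replicate 1. With genes of a mean of at least 5 it was 4, of which 2 rose and 2 fell. In LR against DTEP limma called 0 of the 15, with 4 at an unadjusted p below 0.05, edgeR called 1 and DESeq2 2, and limma called 6 without DTEP replicate 3 and 2 without LR replicate 3. The signature held genes that moved in opposite directions in the same comparison.

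CCN1 and CCN2, secreted matrix proteins and the best known targets, did not pass from Control to DTP (log2 changes -0.03 and 1.22, limma adjusted p 0.952 and 0.143). That of CCN1 turned to 0.02 under median-of-ratios scaling, 0.04 under edgeR, 0.03 under DESeq2, 0.06 without Control replicate 2 and 0.03 without DTP replicate 2, and that of CCN2 passed without LR replicate 3 (0.0483). CCN1 was at 24.2 to 29.8 normalised read counts in Control and 68.1 to 90.9 in LR, a rise of 1.54 (SE 0.33 in limma, adjusted p 0.00150). Its DTEP libraries were at 57.9, 66.9 and 21.0, and DTEP replicate 3 was below Control. CCN2 was at 0.792 to 1.47 in Control and at 2.81 to 4.70 in DTP. These groups did not overlap, as was so for 77.3% of all genes, although the change did not pass. Within LR alone CCN2 ran from 0.830 to 10.7. AXL, a receptor kinase, had at most 2 reads in any library.

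The other named signature genes are those with the 3 largest and 3 smallest called changes from DTP to DTEP, so their directions were fixed by the choice. FJX1, a relative of the fly gene four-jointed, which acts in the cadherin branch of the pathway, went from 0.852 ± 0.233 to 32.6 ± 18.0 normalised read counts (SD, n = 3, log2 change 3.98, limma adjusted p 2.97e-06), while DOCK5 and NUAK2 rose by 1.32 and 1.27 (limma adjusted p 0.00282 and 0.000109). IGFBP3, which binds insulin-like growth factors, rose from 106 ± 3.33 in Control to 1451 ± 71.2 in DTP (limma adjusted p 0.0348) and changed by -4.16 in DTEP (SE 1.36 in limma, adjusted p 0.0168), where its libraries were at 429, 127 and 8.64. Its DTP rise was lost without any Control or DTP library (0.0737 to 0.0810), and its decrease in DTEP without DTEP replicate 3 (-2.63, 0.0677) or under edgeR (0.0570). CRIM1 and MYOF changed by -3.39 and -3.12 (limma adjusted p 0.00374 and 6.72e-07). MYOF, a membrane repair protein, went from 391 ± 59.6 in DTP to 45.3 ± 14.6 in DTEP.

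**Figure D4:**
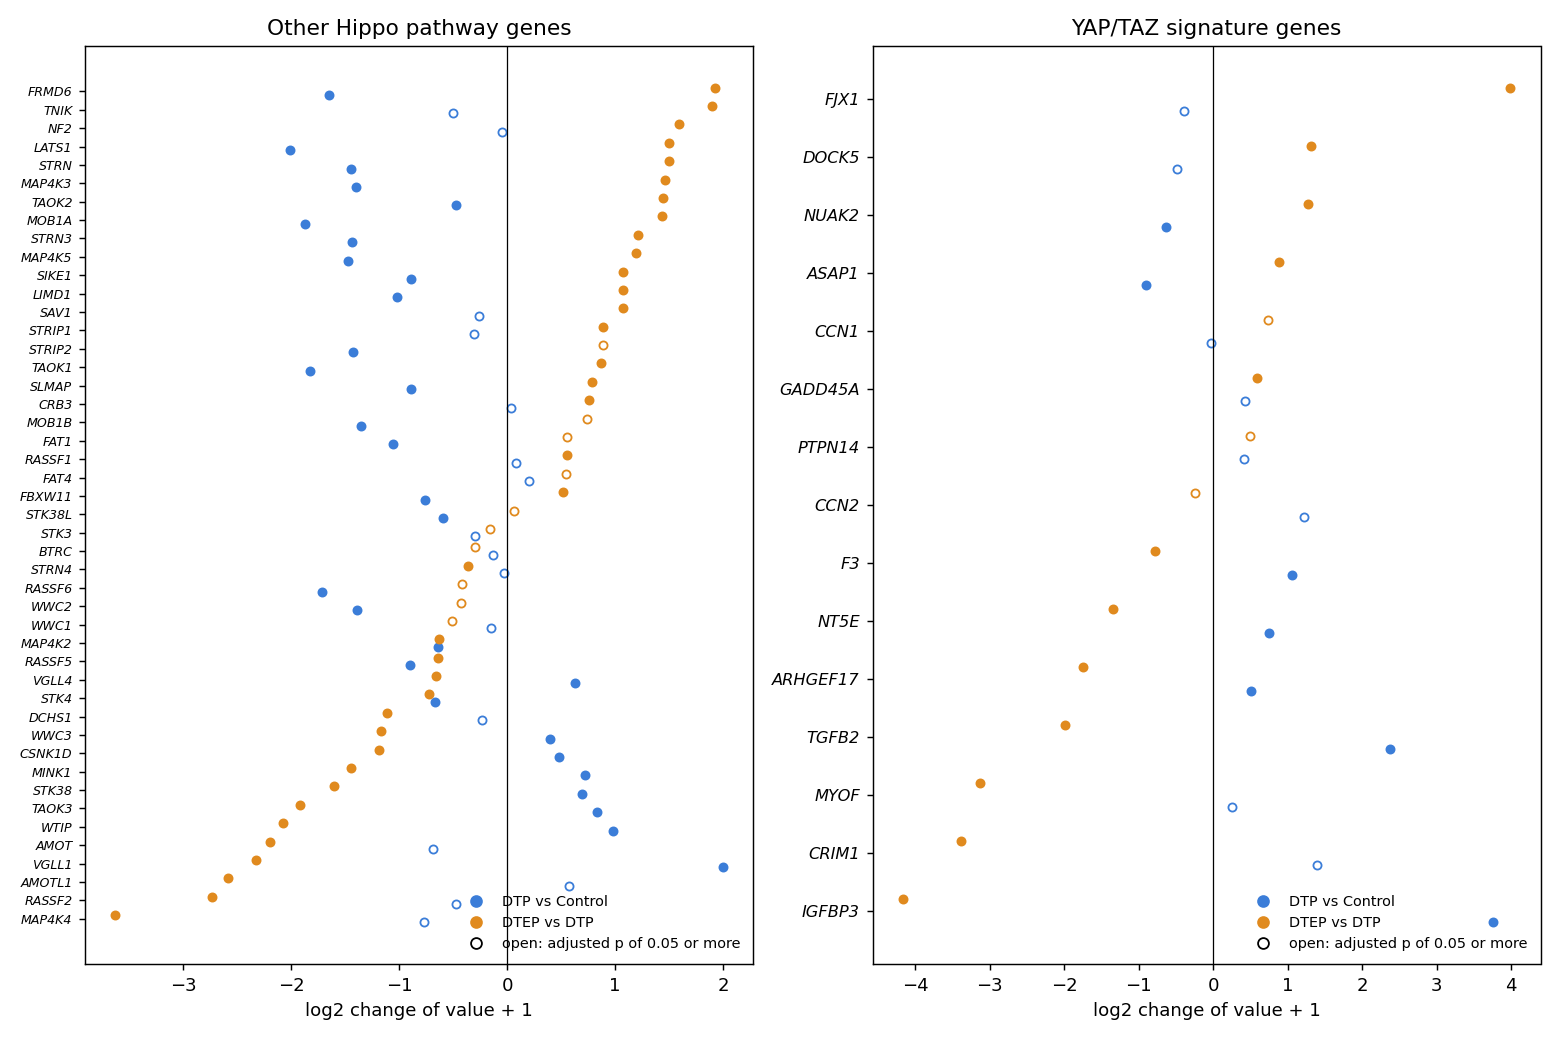
Change on the log2(value + 1) scale in DTP vs Control (blue) and DTEP vs DTP (orange) of the tested genes of the pathway list (left) and of the YAP/TAZ signature (right), ordered by the second change. Open points did not pass an adjusted p of 0.05, and the 2 comparisons share the DTP libraries, so opposite signs are in part built in. MAP4K4 lies at -3.62 and FJX1 at 3.98 in DTEP vs DTP.

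The genes with the most similar levels over the 12 libraries differed between members. By Pearson's r of log2(value + 1), which here mostly follows the 4 groups, TEAD1 was closest to GNAQ and ADD3 (r 0.999 and 0.998), and the LR means of these 2 genes were 0.0323 and 0 normalised read counts. YAP1 was closest to FAR1 (0.992), and WWTR1 to HACE1 and KDM6A (0.922 and 0.886). TEAD2 was closest to ALDH7A1 and IVD (0.979 and 0.976), TEAD3 to UBE2O and BRSK1 (0.994 and 0.992) and TEAD4 to PAQR4 and PRADC1 (0.980 and 0.977). For the target genes they were TF and CTIF for AMOTL2 (0.952 and 0.949), SDCCAG8 and ASNS for AJUBA (0.938 and 0.930), IKZF4 and UBE2J1 for LATS2 (0.927 and 0.923), and STAM-AS1 and CYP4F3 for ANKRD1 (0.974 and 0.970). No member was among the closest genes of another.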

How the data were processed

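Stranded libraries of mRNA were aligned by the authors with Rsubread (hg38), and reads were counted over RefSeq genes at default settings, which ignore the strand. The submitters' processing notes also name bcl2fastq and edgeR. For each library and gene the deposited value is a normalized signal. All 199680 values above 0 (100%) were whole multiples of 1 read, within 0.0001, so whole reads were recovered. edgeR 4.0.16 returned the deposited values from them as CPM with TMM factors.

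The main test was limma 3.58.1 in R 4.3.3 on log2(value + 1), after the study, fitted to all 12 libraries without covariates and with a variance trend. Genes at 1 or more in at least 3 libraries were tested (13794). Tests were two-sided, with Benjamini-Hochberg adjustment over all genes tested in each of 5 comparisons. The scripts were tested on simulated reads. Alternatives were edgeR's quasi-likelihood fit of the recovered reads, DESeq2 1.42.0 on the same reads, other pseudocounts, filters and scaling, and each library left out. The labels give no batch.

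The members, the pathway list and the signature were chosen with earlier results of these data known. Named list genes were LATS1, NF2, AMOT, VGLL1, VGLL4, CCN1, CCN2 and AXL, and the 3 largest and 3 smallest changes of each list in DTEP against DTP that passed, with a group mean of at least 1. MOB4 and CSNK1E were named after their values were seen. For each member, the 2 genes with the highest r were named, except 1 that is not reported here. Coordinates are RefSeq's on GRCh38.p14, matched by Entrez number, and transcript lengths are GENCODE's MANE Select.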

Additional observations from a re-analysis of the deposited data

How the results depend on the processing

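Of 50 changes of members, 27 kept their direction and side of the threshold in every alternative. Over 1095 refitted values of members, 83 lost a call, 17 gained one and 18 turned the sign, and no called change turned. TEAD2 in LR against DTEP turned from -0.04 to 0.00347 with median-of-ratios scaling, 0.0407 with edgeR and 0.0226 with DESeq2, and TEAD3 in DTP against Control from -0.01 to 0.0338, 0.0552 and 0.0502 in that order. In the same order and comparison, NF2 turned from -0.04 to 0.00243, 0.0193 and 0.0150 and CCN1 from -0.03 to 0.0166, 0.0364 and 0.0316. Of 24 changes given for listed genes, 19 kept direction and side of the threshold in every alternative. The other turns came with single libraries left out. There YAP1 in LR against DTEP ran from -0.0952 to 0.225, WWTR1 from -0.0700 to 0.300 in DTEP against DTP, from -0.287 to 0.0138 in DTEP against Control and from -0.0375 to 0.373 in LR against Control, TEAD2 in LR against DTEP from -0.203 to 0.148, TEAD3 and CCN1 in DTP against Control from -0.0753 to 0.0373 and from -0.112 to 0.0614, and, in LR against Control, TEAD4 from -0.0577 to 0.141 and AJUBA from -0.315 to 0.270. With median-of-ratios scaling the median over all genes shifted by -0.104 in DTEP against DTP, and by less than 0.1 in the other comparisons.

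In LR against DTEP the members that pass went from 2 to 1 with no filter, 0 with only the 6 libraries compared (4 at an unadjusted p below 0.05), 0 with the replicate block (5 unadjusted), 4 with edgeR and 4 with DESeq2. Pathway genes went from 3 to 0 with only those 6 libraries (7 unadjusted), 5 with median-of-ratios scaling, 8 with edgeR and 12 with DESeq2. Signature genes went from 0 to 1 with edgeR and 2 with DESeq2. All genes went from 1014 to 537 with no filter, 0 with only those libraries (2260 unadjusted), 655 with the replicate block, 1703 with edgeR and 3093 with DESeq2. Signature genes in DTP against Control went from 7 to 4 with a mean of at least 5 and 12 with only the 6 libraries compared. The cause was not tested.

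With an absolute log2 change above 2 as well, the counts for the 3 successive transitions and then for DTEP and LR against Control were 0, 1, 0, 1 and 1 members, 1, 6, 0, 5 and 3 pathway genes, 2, 4, 0, 2 and 3 signature genes, and 678, 2091, 94, 1466 and 1770 of all genes. In the same order, single libraries left out gave 2 to 7, 7 to 7, 0 to 5, 4 to 7 and 6 to 7 members, 25 to 33, 32 to 40, 0 to 25, 23 to 29 and 24 to 29 pathway genes, 3 to 10, 9 to 12, 0 to 6, 6 to 9 and 9 to 12 signature genes, and 5733 to 8774, 8293 to 9827, 144 to 6529, 6781 to 8772 and 7479 to 9612 of all genes.

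Same-numbered libraries mostly did not deviate together, with r from -0.44 to 0.36 and 2 of 18 pairs above 0.1. Those 2 were DTP with DTEP, replicate 1 (0.36) and replicate 3 (0.34). No pairing by number was seen across the groups, but deviations within groups of 3 libraries cannot exclude it. With the replicate block 4 members passed from Control to DTP, 7 from DTP to DTEP, and 5 (DTEP) and 7 (LR) against Control. Depth limits what can be said of ANKRD1, VGLL1 and AXL, whose values rest on few reads.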
